A study of Homo sapiens with 6 samples.

Results

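The TGF-beta, BMP and activin signaling genes examined here were 45 genes of the 58676 in the table. They were chosen by name for their roles in the pathway and not by a threshold on measured values, although earlier results of these data were known. They cover ligands, latent binding proteins, receptors, co-receptors, extracellular antagonists, SMAD proteins, regulators of SMADs and the ID genes, and all 45 were found in the table. The samples were cultures of DCIS.COM, an established human breast cell line of the basal type that forms lesions resembling ductal carcinoma in situ. In the 3 NS control samples the cells had been transduced with the lentiviral vector PLKO.1 carrying a non-silencing shRNA, and in the 3 BCL9 KD samples with PLKO.1 carrying an shRNA against BCL9, a co-activator of beta-catenin in Wnt signaling. All 6 samples therefore shared the cell line, the vector, lentiviral transduction and a medium of DMEM/F12 with 5% horse serum, and each replicate was a flask of its own. The comparison asked how RNA levels in this pathway differ when BCL9 is lowered. No ligand was added, so the values describe cells in their growth medium, and a single cell line and a single knockdown line were compared.

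Ligands of the TGF-beta superfamily are dimers that bring together type I and type II serine/threonine kinase receptors. TGF-beta and activin receptors phosphorylate SMAD2 and SMAD3, BMP receptors phosphorylate SMAD1, SMAD5 and SMAD9, and both groups enter the nucleus with SMAD4 to regulate transcription. Most latent TGF-beta binding proteins store the ligand in the matrix, follistatin, noggin and gremlin bind ligands outside the cell, and SMAD6, SMAD7 and the SMURF ligases damp the signal inside. In normal mammary epithelium TGF-beta restrains growth, while in advanced breast tumors it is known for its link to invasion.

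RNA levels were measured by paired-end RNA sequencing and are given as FPKM, a read count scaled for gene length and sequencing depth, so that levels of different genes can be set side by side per length. BCL9 itself (ENSG00000116128, chr1:147541412-147626216, GRCh38) was at 6.25, 6.24 and 5.34 FPKM in the NS control samples and at 2.86, 2.78 and 2.59 FPKM in the BCL9 KD samples, which fits the labels. Its log2 fold change was −0.99 (SE 0.0933, limma adjusted p = 0.00773). BCL9 passed in 13 of the 17 alternative fits described below, with log2 fold changes from −1.12 to −0.89 over all 17. It was lost without NS control replicate 2 (adjusted p = 0.0636), BCL9 KD replicate 2 (0.0589) or BCL9 KD replicate 3 (0.07), and with a block for replicate number (0.0656). The samples held between 15222452 and 26949026 reads on genes. All 8 basal epithelial markers were detected, with summed levels of 1190 to 1358 FPKM in NS control and 1218 to 1284 FPKM in BCL9 KD. Summed levels of the 8 fibroblast markers were 0.71 to 0.737 and 0.768 to 0.905 FPKM, with COL3A1 at 0 reads, and those of the 6 leukocyte markers did not pass 0.214 FPKM, with PTPRC near 0. Luminal markers summed to 434 to 551 FPKM in NS control and to 396 to 413 FPKM in BCL9 KD, most of it KRT8 and KRT18, neither of them called, with PGR at 0 reads and ESR1 near 0. Endothelial markers summed to 1.90 to 2.45 FPKM and 3.23 to 4.08 FPKM, almost all of it PECAM1, with CDH5, VWF, KDR and TEK near 0. The part of these shifts in the results below was not tested. NS control replicate 1 stood apart from the other 5 samples in its genes of low GC content, as described further on.

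Of the 45 genes, 41 had a mean of at least 0.5 FPKM over the 6 samples and were tested. The other 4 were TGFB3, BMP4, INHBB and GREM1. In BCL9 KD cells ID1, a BMP target, and LTBP4, a latent TGF-beta binding protein, rose. TGFBR3, a co-receptor, LTBP2, a matrix protein of the same family, and ACVR1B, the activin type I receptor ALK4, fell. These 5 genes passed an adjusted p of 0.05 in limma, fitted over all genes tested, and made up 12.2% of the 41, against 5.87% of all tested genes. Higher calls were 2 of 41, where the background was 2.96%, and lower calls were 3 of 41, where it was 2.91%. With quantile normalization the calls were 1 higher and 3 lower, since LTBP4 was lost (adjusted p = 0.0588), and over all tested genes they were 470 higher and 613 lower, against 407 and 400 in the main test. In bulk RNA, fewer cells that express a gene and less RNA per cell cannot be told apart.

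The 41 genes did not move one way. Their log2 fold changes, BCL9 KD minus NS control on the log2(FPKM + 0.5) scale, had a median of 0.03, with 24 above 0 and 17 below, and the median of all tested genes was 0.04, with 55.45% above 0. The groups of samples did not overlap for 18 of the 41 genes (43.9%), 10 higher and 8 lower in BCL9 KD, where the background was 34.2%. An unadjusted p under 0.05 was reached by 13 of 41 genes (31.7%), near the 27.5% of all tested genes. With 3 samples in each group an exact two-sided permutation test of a single gene cannot give a p below 0.1.

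**Figure D1:**
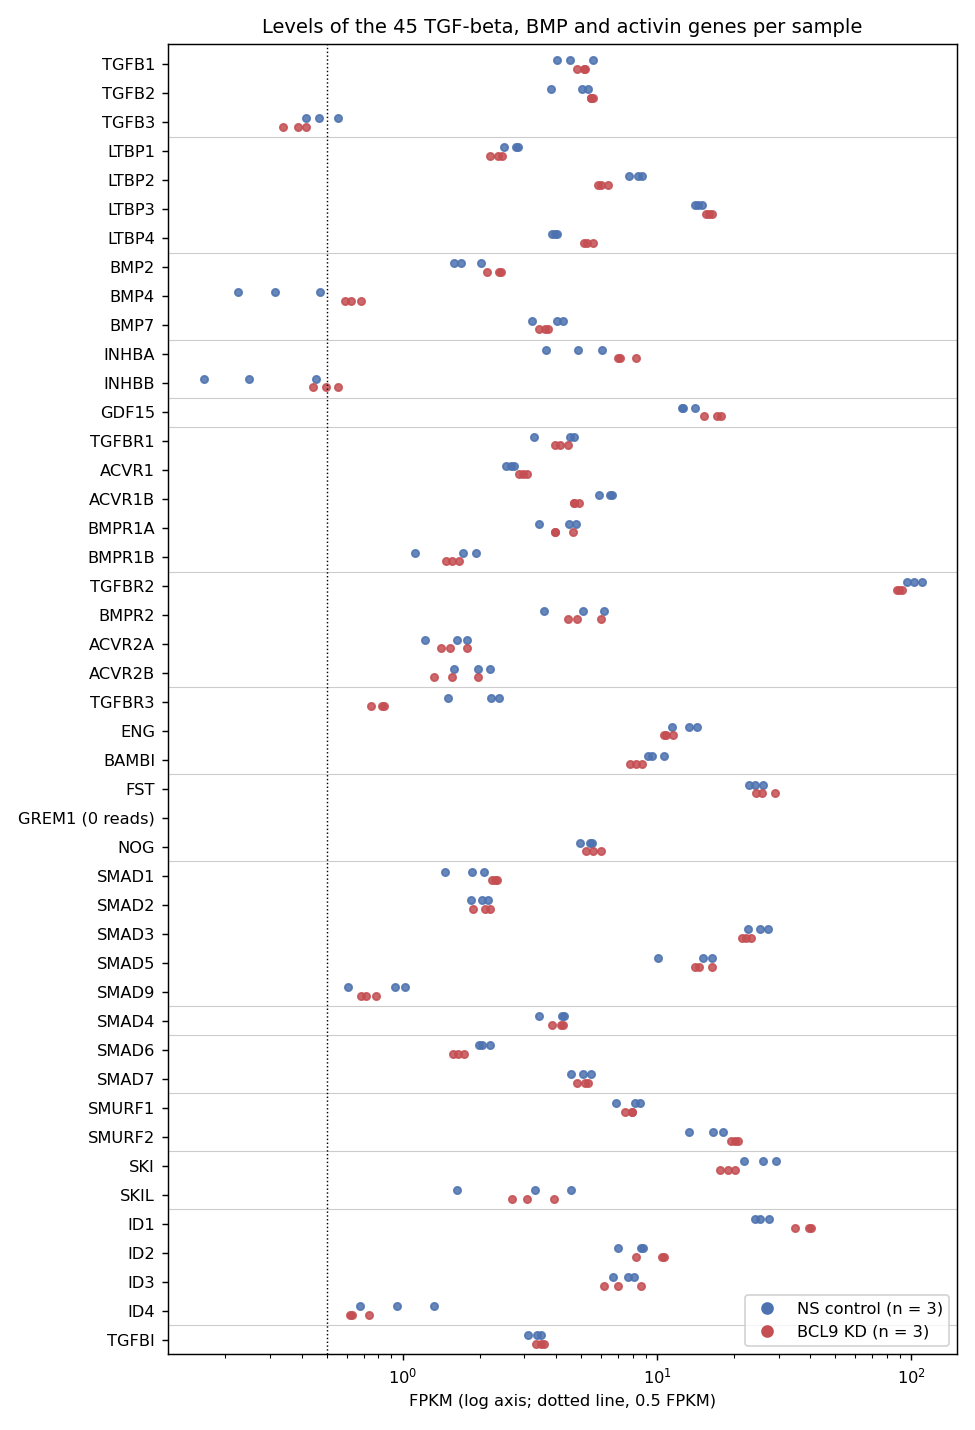
Each row is 1 of the 45 genes and each point 1 sample, with its level in FPKM on a log axis (blue, NS control, n = 3; red, BCL9 KD, n = 3); genes are ordered by role and thin lines separate the roles. TGFBR2 lies far to the right at a mean of 96.1 FPKM, GREM1 has no point because it had 0 reads in all samples, and the red and blue points of ID1, LTBP4, TGFBR3, LTBP2 and ACVR1B are apart.

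**Figure D2:**
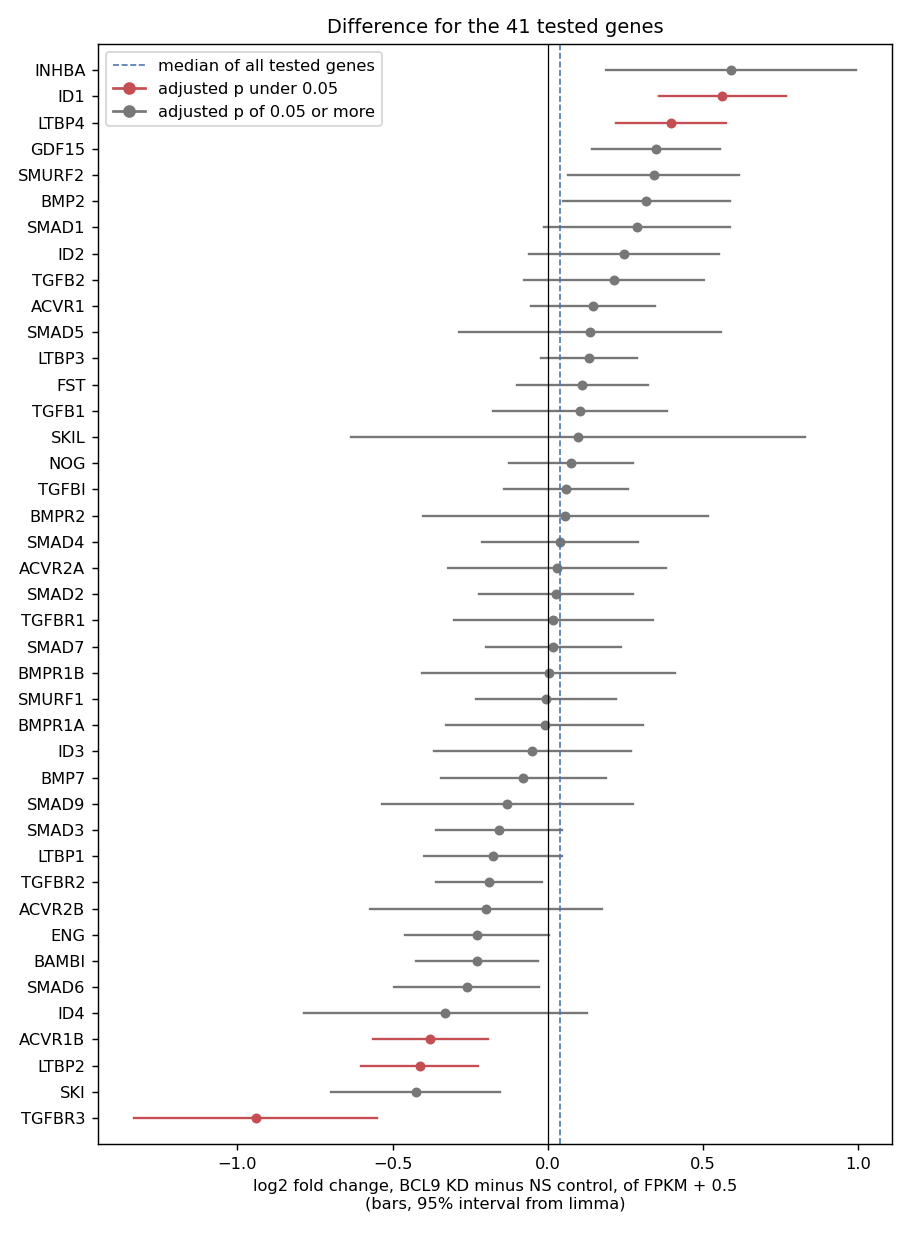
Points show the log2 fold change of FPKM + 0.5, BCL9 KD minus NS control, for the 41 tested genes, and bars its 95% interval from limma; red marks the 5 genes with an adjusted p under 0.05 and the dashed line the median of all tested genes. The points run from −0.94 (TGFBR3) to 0.59 (INHBA), and most intervals cross 0.

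Leaving out single samples ended many of these calls, as it did over the whole table. Without NS control replicate 2, BCL9 KD replicate 2 or BCL9 KD replicate 3, limma called 0 of the 45 genes (10, 10 and 9 with an unadjusted p under 0.05), where it called 12 of 13750, 13 of 13783 and 5 of 13764 tested genes, so these zeros are not a result about the members. Without BCL9 KD replicate 1 it called 2 members (748 of 13696 tested genes), without NS control replicate 1 it called 4 (690 of 13862) and without NS control replicate 3 it called 8 (1729 of 13692). With no filter on low values 0 of the 45 genes were called (15 with an unadjusted p under 0.05), beside 142 of 30731 genes, and without the mean-variance trend 2 were called, ID1 and TGFBR3, beside 332 of 13745. The direction of all 5 genes was the same in all 17 alternatives that were run, but many of these could not change it. Groups that do not overlap keep their direction when a sample is left out. The filters, the trend and the replicate block leave the fold change as it is.

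ID1 encodes an inhibitor of basic helix-loop-helix factors and is the classic immediate target of BMP receptors acting through SMAD1 and SMAD5. It was at 27.5, 25.4 and 24.1 FPKM in the NS control samples and at 34.7, 40.4 and 39.4 FPKM in the BCL9 KD samples. The lowest BCL9 KD sample stood above the highest NS control sample. The means were 25.7 ± 1.70 and 38.2 ± 3.04 FPKM (SD, n = 3), a ratio of 1.49, and the log2 fold change was 0.56 (SE 0.0867, 95% interval 0.36 to 0.77, limma adjusted p = 0.0236). Of the 45 genes ID1 was called under the most alternatives, 12 of 17. It was lost with no filter on low values (adjusted p = 0.0659) and without NS control replicate 2 (0.118), BCL9 KD replicate 2 (0.137) and BCL9 KD replicate 3 (0.14). The replicate block, under which 0 genes in all were called, also ended the call of ID1.

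The other ID genes encode proteins of the same kind and none of them was called. ID2 was at 8.79, 6.99 and 8.64 FPKM in NS control and 8.26, 10.6 and 10.4 FPKM in BCL9 KD (log2 fold change 0.25, or 0.15 without NS control replicate 2, adjusted p = 0.262), and the groups overlapped. ID3 ranged from 6.68 to 8.13 and from 6.17 to 8.63 FPKM. ID4, at 0.676 to 1.32 and 0.617 to 0.735 FPKM, had a log2 fold change of −0.33 (adjusted p = 0.304), which was −0.17 without NS control replicate 3. Of the BMP target genes in the group, then, ID1 was the highest per length in all samples and the single one called, and differences in response between ID genes were not tested. TGFBI, a matrix protein named for its induction by TGF-beta, was at 3.10 to 3.47 FPKM in NS control and 3.34 to 3.59 FPKM in BCL9 KD.

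TGFBR3 encodes betaglycan, a membrane proteoglycan that presents TGF-beta2 to the signaling receptors and binds inhibin. It was at 1.5, 2.22 and 2.39 FPKM in the NS control samples and at 0.747, 0.844 and 0.829 FPKM in the BCL9 KD samples. NS control replicate 1 was the lowest control and was still well above all 3 BCL9 KD samples. The means were 2.04 ± 0.472 and 0.807 ± 0.0519 FPKM, a ratio of 0.396, and the log2 fold change of −0.94 (SE 0.165, 95% interval −1.33 to −0.55, limma adjusted p = 0.0319) was the largest in size of the 41 genes. These levels rest on 297 to 391 reads in NS control and 113 to 198 reads in BCL9 KD. The added 0.5 FPKM weighs on a gene this low, and the log2 fold change was −1.28 with voom on whole reads recovered from the FPKM (adjusted p = 0.0108). Besides the 3 samples named above, leaving out BCL9 KD replicate 1 ended the call (adjusted p = 0.0566).

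ENG and BAMBI stand beside TGFBR3 at the membrane. Endoglin, the product of ENG, is a co-receptor best known in endothelial cells, and BAMBI is a pseudoreceptor without a kinase domain. ENG was at 14.4, 13.4 and 11.4 FPKM in NS control and 10.8, 11.6 and 10.7 FPKM in BCL9 KD, so the groups overlapped (log2 fold change −0.23, or −0.15 after correcting samples for GC content, adjusted p = 0.188). Of the endothelial markers PECAM1 had means of 2.10 and 3.45 FPKM (log2 fold change 0.61, adjusted p = 0.0477), and the other 4 were too low to be tested, with higher means in BCL9 KD for CDH5, VWF and KDR and a lower one for TEK. BAMBI was at 10.6, 9.23 and 9.51 FPKM in NS control and 7.82, 8.27 and 8.69 FPKM in BCL9 KD. The groups did not overlap for BAMBI, but it was not called (log2 fold change −0.23, adjusted p = 0.134).

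Type I receptors carry the kinase that phosphorylates SMADs. ACVR1B was at 6.52, 6.63 and 5.91 FPKM in the NS control samples and at 4.71, 4.69 and 4.90 FPKM in the BCL9 KD samples. The 3 BCL9 KD values lay close together and below all controls. The means were 6.35 ± 0.387 and 4.77 ± 0.117 FPKM, a ratio of 0.75, with a log2 fold change of −0.38 (SE 0.0782, 95% interval −0.56 to −0.19, limma adjusted p = 0.0436). Leaving out NS control replicate 1 (adjusted p = 0.0544) or BCL9 KD replicate 1 (0.0763) also ended this call, so it held in 1 of the 6 fits without a sample, and it was lost without the trend (0.0616).

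The other 4 type I receptors were not called. ACVR1, known as ALK2, was at 2.65, 2.73 and 2.54 FPKM in NS control and 3.06, 2.86 and 2.98 FPKM in BCL9 KD, without overlap (log2 fold change 0.14, or 0.06 with quantile normalization, adjusted p = 0.302). TGFBR1, the type I receptor for TGF-beta, had means of 4.17 and 4.18 FPKM. BMPR1A and BMPR1B, the BMP receptors ALK3 and ALK6, had means of 4.25 and 4.19 FPKM and of 1.59 and 1.56 FPKM. For these last 3 genes the 95% intervals of the log2 fold change were −0.30 to 0.34, −0.33 to 0.31 and −0.40 to 0.41, and their lowest log2 fold changes among the alternatives were −0.18, −0.14 and −0.17. In all 3 of them NS control replicate 1 was the lowest of the 6 samples.

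Type II receptors bind ligand and activate the type I receptors. TGFBR2, the TGF-beta type II receptor, had the highest level per length of all 45 genes, at 96.1, 110 and 102 FPKM in NS control and 87.8, 92.1 and 89.1 FPKM in BCL9 KD. All BCL9 KD samples were below all controls, yet the difference did not pass the test (log2 fold change −0.19, 95% interval −0.36 to −0.02, adjusted p = 0.145). BMPR2, the BMP type II receptor, ranged from 3.58 to 6.19 and from 4.45 to 6.0 FPKM. The activin type II receptors ACVR2A and ACVR2B had means of 1.54 and 1.57 FPKM and of 1.92 and 1.61 FPKM. The log2 fold change of ACVR2B was −0.20 (adjusted p = 0.438) and ran from −0.32 to −0.10 without single samples. The mean of TGFBR2 thus stood far above those of its partner TGFBR1 and of the betaglycan gene TGFBR3, and no type II receptor was called.

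**Figure D3:**
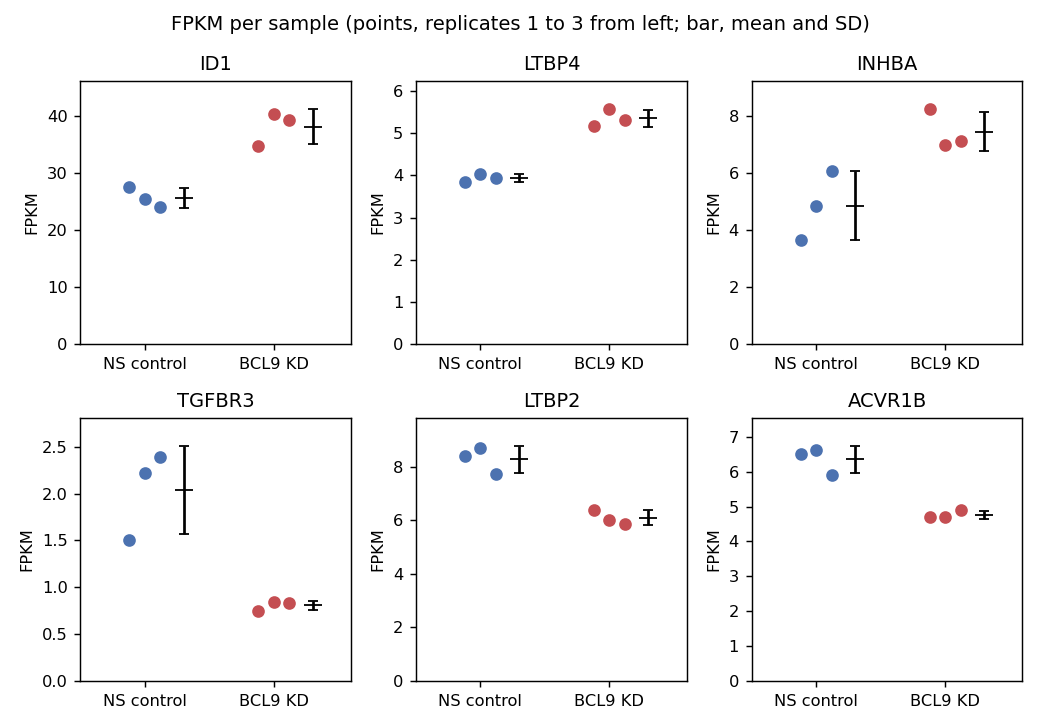
Each panel plots the FPKM of 1 gene in the 3 NS control (blue) and 3 BCL9 KD samples (red) on an axis from 0, with the mean and SD (n = 3) in black. In all 6 panels the groups do not overlap; ID1 and LTBP4 rose, TGFBR3, LTBP2 and ACVR1B fell, and INHBA, with controls from 3.64 to 6.09 FPKM, did not pass the test.

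Latent TGF-beta binding proteins anchor latent TGF-beta in the matrix, except LTBP2, which does not bind the latent ligand. The 2 called members of this family moved in opposite directions. LTBP4 was at 3.84, 4.03 and 3.95 FPKM in the NS control samples and at 5.16, 5.57 and 5.31 FPKM in the BCL9 KD samples, with means of 3.94 ± 0.0926 and 5.35 ± 0.203 FPKM. The spread within each group was small beside the gap between them, and the log2 fold change was 0.40 (SE 0.0747, 95% interval 0.22 to 0.57, limma adjusted p = 0.0362). LTBP2 was at 8.41, 8.70 and 7.72 FPKM in NS control and at 6.40, 6.02 and 5.85 FPKM in BCL9 KD, with means of 8.28 ± 0.50 and 6.09 ± 0.281 FPKM. All its BCL9 KD values were below the lowest control, and the log2 fold change was −0.41 (SE 0.0793, 95% interval −0.60 to −0.22, limma adjusted p = 0.0374). The call of LTBP4 was also lost without BCL9 KD replicate 1 (adjusted p = 0.0538), and that of LTBP2 without NS control replicate 1 (adjusted p = 0.0501). Without the mean-variance trend of limma neither passed (adjusted p = 0.0522 for LTBP4 and 0.0563 for LTBP2).

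Neither LTBP1 nor LTBP3 was called, although their groups did not overlap either. LTBP1 was at 2.84, 2.78 and 2.49 FPKM in NS control and 2.44, 2.35 and 2.20 FPKM in BCL9 KD (log2 fold change −0.18, adjusted p = 0.267). LTBP3, the highest of the family per length, was at 14.5, 15 and 14 FPKM in NS control and 16.4, 15.5 and 15.9 FPKM in BCL9 KD (log2 fold change 0.13, adjusted p = 0.241).

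The activin and TGF-beta ligands were low to moderate and none was called. INHBA, which encodes the activin beta-A subunit, had the largest positive log2 fold change of the 41 genes. It was at 3.64, 4.86 and 6.09 FPKM in the NS control samples and at 8.24, 6.99 and 7.14 FPKM in the BCL9 KD samples. The groups did not overlap, but the controls spread widely, with means of 4.86 ± 1.22 and 7.45 ± 0.685 FPKM. The log2 fold change of 0.59 (SE 0.17, 95% interval 0.19 to 0.99) had an adjusted p of 0.0833 in limma. INHBA passed in 2 of 17 alternatives. These were voom on the recovered reads (adjusted p = 0.0421), where 10.2% of all tested genes were called, and the fit without NS control replicate 3 (adjusted p = 0.0333). Without NS control replicate 1, its lowest sample, the log2 fold change was 0.42 (adjusted p = 0.0889). INHBB, the beta-B subunit, was at 0.453, 0.247 and 0.164 FPKM in NS control and 0.441, 0.556 and 0.498 FPKM in BCL9 KD, from 8 to 48 reads, and was too low to be tested.

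TGFB1 and TGFB2 had similar levels per length. TGFB1 ranged from 4.05 to 5.57 and from 4.83 to 5.21 FPKM, and it overlaps HNRNPUL1 and CCDC97 on the opposite strand, both expressed. The library kit named in the labels does not mark strand, so reads in the shared stretches cannot be assigned. TGFB2 was at 3.83, 5.34 and 5.05 FPKM in NS control and 5.5, 5.6 and 5.47 FPKM in BCL9 KD, without overlap (log2 fold change 0.21, adjusted p = 0.299). Without NS control replicate 1 the log2 fold change of TGFB2 was 0.08, and after a correction for GC content 0.07. TGFB3 was at 0.414 to 0.553 and 0.338 to 0.414 FPKM, below the limit for testing, and it lies wholly within IFT43, an expressed gene on the opposite strand, so its reads may be shared. The 3 TGF-beta genes therefore gave 0 calls.

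Among the BMP ligands BMP7 was the highest per length, at 3.23 to 4.26 FPKM in NS control and 3.44 to 3.71 FPKM in BCL9 KD. BMP2 was at 2.02, 1.59 and 1.70 FPKM in NS control and 2.44, 2.13 and 2.39 FPKM in BCL9 KD. Its groups did not overlap and its log2 fold change was 0.32 (95% interval 0.05 to 0.59), with an adjusted p of 0.131. BMP4 was at 0.314, 0.225 and 0.469 FPKM and at 0.624, 0.590 and 0.683 FPKM, from 14 to 49 reads. All BMP4 values of BCL9 KD were above those of NS control, but its mean over the 6 samples was below the limit for testing.

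GDF15, a divergent member of the superfamily that signals through a receptor of another family and is induced by cell stress, was the most abundant ligand gene of the group per length. It was at 14.1, 12.5 and 12.6 FPKM in NS control and at 15.3, 17.2 and 17.8 FPKM in BCL9 KD. The groups did not overlap, and the log2 fold change was 0.35 (95% interval 0.14 to 0.55, adjusted p = 0.0622). It passed after a correction for GC content (log2 fold change 0.42, adjusted p = 0.0186), which called 12% of all tested genes, and without NS control replicate 1 (adjusted p = 0.049).

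None of the extracellular antagonists was called. FST, follistatin, which binds activin, was at 23.0 to 26.1 FPKM in NS control and 24.4 to 29.2 FPKM in BCL9 KD. NOG, noggin, which binds BMPs, was at 4.96 to 5.52 and 5.26 to 6.0 FPKM. The 95% intervals of their log2 fold changes were −0.10 to 0.32 and −0.12 to 0.28. GREM1, gremlin, had 0 reads in all 6 samples, and a count of 0 allows up to 3 reads per sample, for counting error only.

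No SMAD gene was called. SMAD3, one of the pair that carries TGF-beta and activin signals, was the highest SMAD per length, at 27.4, 25.3 and 22.7 FPKM in NS control and 23.3, 22.4 and 21.6 FPKM in BCL9 KD (log2 fold change −0.16, or −0.08 after the GC correction, adjusted p = 0.277). Its partner SMAD2 was at 1.85 to 2.16 and 1.89 to 2.21 FPKM, and the common SMAD4 at 3.42 to 4.31 and 3.85 to 4.26 FPKM. Among the BMP SMADs, SMAD5 was the highest, with means of 13.9 and 15 FPKM, and SMAD9 the lowest, with means of 0.852 and 0.725 FPKM. SMAD1 was at 1.46, 1.87 and 2.08 FPKM in NS control and 2.23, 2.30 and 2.35 FPKM in BCL9 KD. Its groups did not overlap, but it did not pass the test (log2 fold change 0.29, adjusted p = 0.196). NS control replicate 1 was the lowest sample, and without it the log2 fold change was 0.18.

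The inhibitory SMADs are feedback inhibitors that the pathway itself induces. SMAD6, which blocks BMP signals, was at 2.19, 1.99 and 2.05 FPKM in NS control and 1.64, 1.73 and 1.57 FPKM in BCL9 KD. The groups did not overlap and the log2 fold change was −0.26 (95% interval −0.49 to −0.03, adjusted p = 0.143). SMAD7, which blocks TGF-beta and BMP signals, had means of 5.06 and 5.12 FPKM (95% interval −0.20 to 0.23).

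SMURF1 and SMURF2 are ubiquitin ligases that mark SMADs and receptors for degradation, and SKI and SKIL are co-repressors that bind SMADs. SMURF2 was at 13.3, 16.5 and 18.1 FPKM in NS control and 20.2, 19.5 and 20.9 FPKM in BCL9 KD, without overlap (log2 fold change 0.34, adjusted p = 0.119). It passed without NS control replicate 3 (adjusted p = 0.0494), and without NS control replicate 1 the log2 fold change was 0.22. SMURF2 overlaps CEP95 on the opposite strand. SMURF1 was at 6.90 to 8.54 and 7.46 to 7.98 FPKM. SKI was at 29.4, 26.0 and 22.0 FPKM in NS control and 20.3, 19.0 and 17.6 FPKM in BCL9 KD. All SKI values of BCL9 KD were below those of NS control, with a log2 fold change of −0.43 (95% interval −0.70 to −0.15) and an adjusted p of 0.073. SKI passed in 3 of 17 alternatives, after the GC correction (adjusted p = 0.034), with voom (0.0459) and without NS control replicate 3 (0.0326). The GC correction called 12% of all tested genes and voom 10.2%. Without single samples the log2 fold change of SKI ran from −0.53 to −0.33. SKIL had the widest interval of the 41 genes, at 1.62, 3.30 and 4.56 FPKM within NS control and 3.91, 2.68 and 3.07 FPKM in BCL9 KD, and its 95% interval ran from −0.63 to 0.83.

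Control replicate 1 bears on the members of low GC content. Over all genes with transcripts under 40% GC, log2 levels in NS control replicate 1 were on average 0.497 below the mean of the 6 samples, while in the other 5 samples the average deviation was between −0.0537 and 0.185. Of the 12 tested members under 45% GC, NS control replicate 1 was the lowest control in 11 and the lowest of all 6 samples in 10, with a median deviation of −0.277. Of the other 29 members it was the lowest control in 10 and the lowest sample in 7, with a median deviation of 0.00408. The low group held TGFB2, TGFBR1, ACVR1, BMPR1A, BMPR1B, BMPR2, ACVR2A, SMAD2, SMAD4, SMURF2, SKIL and ID4, and none of these 12 was called. The 5 called genes lay between 45.9% and 64.1% GC, and all 5 were also called after the GC correction. That correction called 12% of all tested genes, against 5.87% in the main test, so calls were easier to keep under it.

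**Figure D4:**
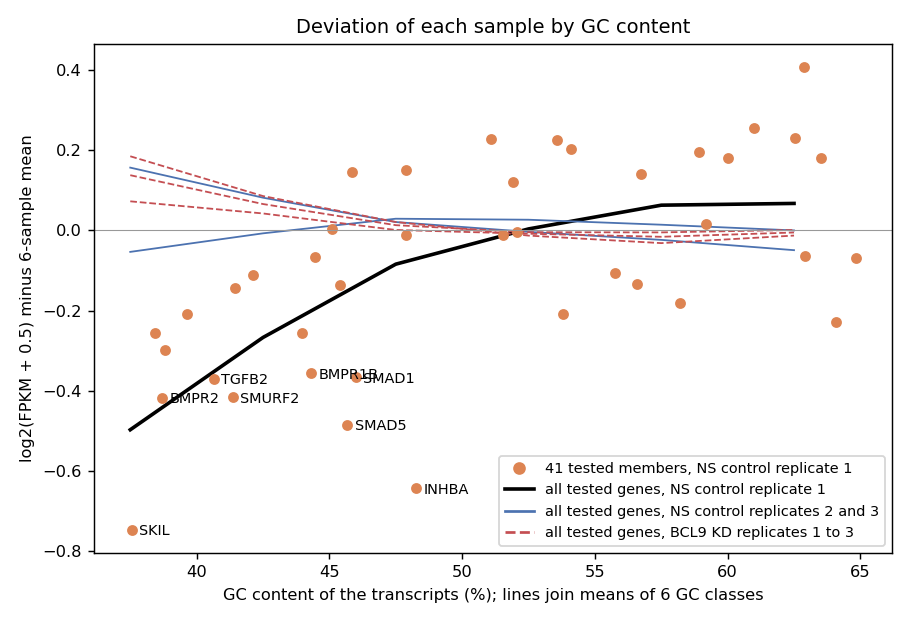
Orange points show, for the 41 tested genes, the log2(FPKM + 0.5) of NS control replicate 1 minus the mean of the 6 samples against transcript GC in percent; lines join the mean deviation of all tested genes in 6 GC classes for each sample (the outer classes hold genes under 40% and of 60% or more). The black line of NS control replicate 1 drops to −0.497 in the lowest class, SKIL lies lowest at −0.746 and INHBA at −0.643 lies well below the line.

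Promoter sequences are shown for the 3 called genes that represent a target, a co-receptor and a receptor. Each is the 250 bases before the RefSeq transcription start on the strand of the gene, taken from RefSeq (GRCh38.p14). Both strands were searched for GTCTAGAC, the palindrome bound by SMAD3 and SMAD4, for GGCGCC, a GC-rich SMAD motif, for TTCNNNGAA, the motif of STAT factors, and for CTTTGAT, a motif of TCF/LEF factors, the partners of beta-catenin. Capitals mark the matches. The ID1 window is chr20:31605039-31605288 (plus strand), that of TGFBR3 is chr1:91886152-91886401 (minus strand) and the ACVR1B windows, for 2 annotated starts, are chr12:51951449-51951698 and chr12:51953134-51953383 (plus strand).
ID1: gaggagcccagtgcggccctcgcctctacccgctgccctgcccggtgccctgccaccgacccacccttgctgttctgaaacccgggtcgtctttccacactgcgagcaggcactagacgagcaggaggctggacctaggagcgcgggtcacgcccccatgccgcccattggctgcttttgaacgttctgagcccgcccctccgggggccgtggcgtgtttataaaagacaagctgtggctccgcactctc
TGFBR3: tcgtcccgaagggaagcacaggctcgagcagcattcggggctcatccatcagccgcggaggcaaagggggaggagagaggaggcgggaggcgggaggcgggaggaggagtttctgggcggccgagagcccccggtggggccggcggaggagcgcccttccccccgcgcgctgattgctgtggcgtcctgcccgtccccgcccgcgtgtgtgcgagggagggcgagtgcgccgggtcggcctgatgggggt
ACVR1B, first start: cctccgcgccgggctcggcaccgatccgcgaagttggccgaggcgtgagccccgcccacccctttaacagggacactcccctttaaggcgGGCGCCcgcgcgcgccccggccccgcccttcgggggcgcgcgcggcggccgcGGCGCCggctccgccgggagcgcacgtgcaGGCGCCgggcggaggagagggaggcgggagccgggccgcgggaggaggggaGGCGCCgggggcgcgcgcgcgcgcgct
ACVR1B, second start: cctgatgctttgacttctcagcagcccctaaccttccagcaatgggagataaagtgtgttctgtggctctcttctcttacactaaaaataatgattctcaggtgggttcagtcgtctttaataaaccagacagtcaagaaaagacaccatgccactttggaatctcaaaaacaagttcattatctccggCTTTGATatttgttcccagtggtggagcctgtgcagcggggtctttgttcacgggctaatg
None of the 4 motifs was found in the ID1 or TGFBR3 window, which says only that these letters are absent from these windows. The first ACVR1B window held GGCGCC 4 times and the second held CTTTGAT. Of the other called genes, whose windows are not printed, LTBP4 held TTCNNNGAA in the window of one start and GGCGCC in that of the other, and LTBP2 held GGCGCC. Over 35116 RefSeq promoters of this length, GGCGCC was found in 16.4%, TTCNNNGAA in 6.57%, CTTTGAT in 2.26% and GTCTAGAC in 0.182%. Of the 73 windows of the 45 genes, 18 held GGCGCC, 3 held TTCNNNGAA and 1 each held CTTTGAT and GTCTAGAC, the last of them SMAD6. A match is a stretch of letters and not a site of binding.

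Other genes of the pathway were read from the same fit. Of 117 further genes in 5 lists, 69 reached a mean of 0.5 FPKM and 48 did not, 14 of them with 0 reads in all samples. Of the 69, 14 were called (20.3%, background 5.87%), 5 higher and 9 lower in BCL9 KD. With the GC correction 20 were called, 10 in each direction, where the background was 12%. Median-of-ratios scaling called 10, of which 3 were higher and 7 lower (302 higher and 344 lower over all tested genes), and ended the calls of TSC22D1 (adjusted p = 0.0521), RBX1 (0.0516), COL4A2 (0.0516) and TGFBRAP1 (0.0546). By list, the calls were 0 of 6 other ligands, 1 of 5 other receptors and co-receptors, 3 of 8 matrix, activation and antagonist genes, 2 of 28 intracellular regulators and 8 of 22 textbook TGF-beta/SMAD target genes. The median log2 fold change of the 69 genes was 0.06, close to the 0.04 of all tested genes.

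Of the called target genes 3 rose and 5 fell. MMP2, a gelatinase that degrades basement membrane, was at 9.44, 9.12 and 8.91 FPKM in NS control and 15.2, 16.4 and 16.0 FPKM in BCL9 KD (log2 fold change 0.76, adjusted p = 0.00753). FN1, fibronectin, was at 37.9, 40.2 and 36.4 FPKM and at 64.0, 54.8 and 51.0 FPKM (0.56, adjusted p = 0.0313). TSC22D1, a leucine zipper factor induced by TGF-beta, also rose (0.39, adjusted p = 0.0356). CTGF, a matricellular protein, was at 41.6, 39.9 and 38.1 FPKM in NS control and 22.8, 26.3 and 26.2 FPKM in BCL9 KD (−0.66, adjusted p = 0.0136). CYR61, of the same family, fell (−0.53, adjusted p = 0.029), as did the basement membrane collagen genes COL4A1 (−0.59, adjusted p = 0.0152) and COL4A2 (−0.31, adjusted p = 0.0456). TAGLN, a smooth muscle actin-binding protein, was the 5th gene to fall (−0.79, adjusted p = 0.0486), from a level below 1.2 FPKM. Voom on the recovered reads gave −1.43 for this low gene (adjusted p = 0.0172), and its call was lost in each fit that left out a sample. TSC22D1 was also lost without BCL9 KD replicate 1 (adjusted p = 0.0526), and COL4A2 without NS control replicate 1 (0.052) or BCL9 KD replicate 1 (0.0512). After the GC correction TSC22D1 (adjusted p = 0.0556), COL4A2 (0.101) and TAGLN (0.0694) no longer passed. Members of this list thus moved both ways, and 14 of the 22 were not called.

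PMEPA1, a membrane protein that is induced by TGF-beta and holds SMAD2 and SMAD3 away from the receptor, had the smallest adjusted p of the pathway genes. It was at 7.77, 6.94 and 6.52 FPKM in NS control and 2.99, 3.14 and 3.22 FPKM in BCL9 KD, with no overlap (log2 fold change −1.06, SE 0.0896, limma adjusted p = 0.00703). RBX1, a ring protein of the SCF ubiquitin ligase, rose from 11.9, 10.5 and 10.4 FPKM to 14.6, 21.5 and 20.6 FPKM (0.74, adjusted p = 0.0422). THBS1, thrombospondin-1, which activates latent TGF-beta, was the most abundant of the called pathway genes, at 937, 1104 and 1033 FPKM in NS control and 693, 653 and 654 FPKM in BCL9 KD (−0.62, adjusted p = 0.0188). SOSTDC1, an antagonist of BMP and Wnt ligands, rose from 1.82, 1.82 and 2.63 FPKM to 4.78, 4.8 and 4.7 FPKM (1.04, adjusted p = 0.0159). FSTL1, a follistatin-like secreted protein, fell (−0.43, adjusted p = 0.0477), and so did TGFBRAP1, which binds TGF-beta receptors (−0.43, adjusted p = 0.0466). Without NS control replicate 2, BCL9 KD replicate 2 or BCL9 KD replicate 3, limma called 0 of these pathway genes (30, 26 and 26 with an unadjusted p under 0.05), beside 12, 13 and 5 calls over all tested genes. RBX1 was also lost without NS control replicate 1 (adjusted p = 0.0526) or replicate 3 (0.0511), TGFBRAP1 without NS control replicate 1 (0.0605) or BCL9 KD replicate 1 (0.0713), and FSTL1 without NS control replicate 3 (0.0552). Without the mean-variance trend RBX1 (adjusted p = 0.0642), TGFBRAP1 (0.0711), FSTL1 (0.0664), CYR61 (0.0523), FN1 (0.0542), TSC22D1 (0.0542) and COL4A2 (0.0787) were lost. With no filter on low values 4 of the 14 were called, PMEPA1, MMP2, CTGF and COL4A1, beside 142 of 30731 genes.

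**Figure D5:**
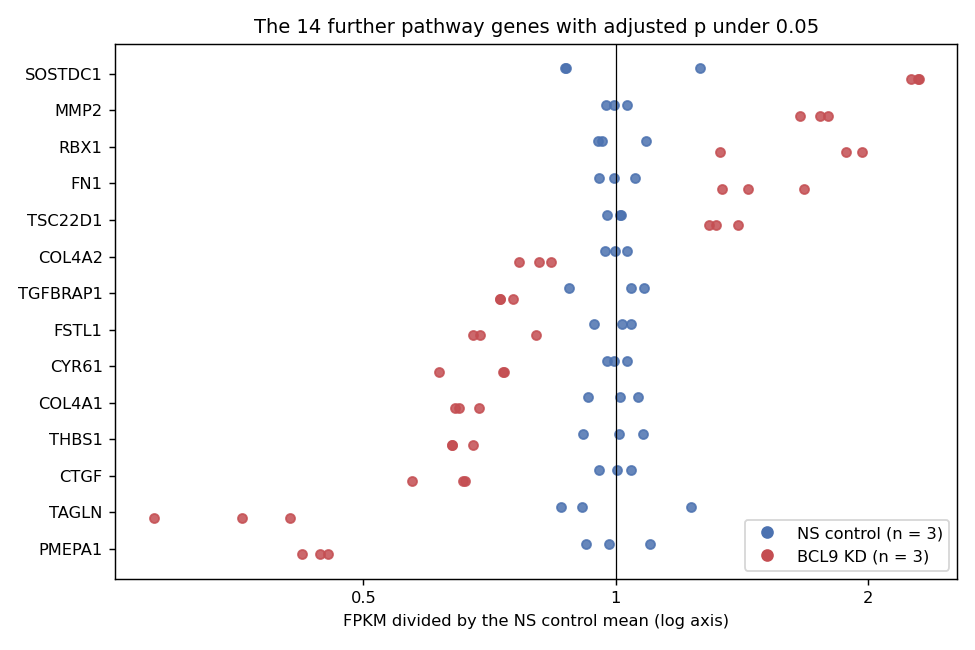
Each row is 1 of the 14 called genes of the pathway lists and each point 1 sample, as FPKM divided by the NS control mean on a log axis (blue, NS control, n = 3; red, BCL9 KD, n = 3). The 5 genes at the top rose and the 9 below fell, and the red points do not overlap the blue ones in any row.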

How the data were processed

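Total RNA of DCIS.COM cells was sequenced as 3 NS control and 3 BCL9 KD samples, a flask each per the labels (the methods for DESeq2 speak of 2 biological replicates per condition), so that p-values measure the spread between flasks of one line. Per the labels, libraries were made with the NEBNext Ultra RNA kit. The authors used STAR for alignment and HTSeq 0.6.1 for counting, and deposited FPKM values made from count and gene length, and the deposited table also lists that length in bases. Whether counting used strand is not given in the sources used here. The submitters' processing notes name hg38 and CASAVA, and 99.85% of 33533 gene positions overlapped the RefSeq gene of the same symbol in GRCh38 (10.96% of 32731 in GRCh37).

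FPKM multiplied by length came out as whole multiples of one step for 100% of values (tolerance 0.1), so that reads per gene and depth could be recovered. Depth was 15222452 to 22712638 reads in NS control and 15665714 to 26949026 in BCL9 KD. Reads are not independent molecules, so precision is lower than counting alone would give. Pearson correlations of log2 values within groups were 0.964 to 0.987.

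The main test was limma 3.58.1 (R 4.3.3) with a mean-variance trend on log2(FPKM + 0.5), a scale that understates changes of low genes. It was fitted over the 13745 genes with a mean of at least 0.5 FPKM, with Benjamini-Hochberg adjustment and a threshold of 0.05. The DESeq2 test of the authors was not run, since the deposited unit is FPKM, and voom on the recovered reads was the count-based alternative. Python 3.11.15, with scipy 1.17.1, matplotlib 3.10.9, numpy 2.4.6 and pandas 2.3.3, drew and summarised the values. The code of the fit was also run on simulated independent counts. These held no GC effect, so that run does not bear on the deviation of NS control replicate 1. The members, lists and tests were chosen with earlier results of these data known. All 45 members are named, with every sample's value for those called or 0.5 or more in absolute log2 fold change, and called pathway genes are named up to the 12 with the smallest adjusted p. FSTL1 and TAGLN fall outside that rule and were added after their values were seen, as were sample values of further members. CCN2, CCN1 and HJV were matched under the older symbols CTGF, CYR61 and HFE2. GC content came from GRCh37 transcripts and was known for 98.8% of tested genes, and its correction was a loess fit with a span of 0.3. Alternatives changed the pseudocount, filter, scaling, trend, unit, GC content, replicate block and samples.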

Additional observations from a re-analysis of the deposited data

How the results depend on the processing

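Of 45 members, 5 were called, of the other pathway genes 14 and of all tested genes 807. With no filter the counts were 0 (15 members with an unadjusted p under 0.05), 4 and 142, and without the trend 2, 8 and 332. Voom on recovered reads called 7, 19 and 1403, and the GC correction 7, 20 and 1648 (928 higher, 720 lower). The replicate block called 0 members, 0 pathway genes and 0 genes in all (10, 30 and 3235 with an unadjusted p under 0.05), and combining that block with GC correction called 1 (ID1), 4 (MMP2, CTGF, PMEPA1 and SOSTDC1) and 143 (97 higher, 46 lower). The replicate numbers did not pair the samples: deviations of same-numbered samples correlated at −0.147, −0.0884 and −0.00287, with a mean of 0.0387 for different numbers. Without single samples the counts ran from 0 to 8, 0 to 17 and 5 to 1729. They were 12 genes in all without NS control replicate 2, 1729 without NS control replicate 3, 13 without BCL9 KD replicate 2 and 5 without BCL9 KD replicate 3. The cause of these differences was not tested. Other pseudocounts, a mean of at least 1 FPKM, median-of-ratios scaling and quantile normalization kept the counts of members and pathway genes within 1.5 times.

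Single genes were followed for 37 genes: BCL9, members of at least 0.14 in absolute log2 fold change and the called pathway genes. Of their 627 values under alternatives, 474 kept their side of the threshold, 145 lost the call and 8 gained it. The 474 include values of members that were not called in the main test. The sign reversed in 0 of the 627, but the limit of 0.14 left out the smaller members, where signs did change. The sign changed in at least 1 of 17 alternatives for 14 of 41 members, with log2 fold changes of at most 0.135 in size, so no direction is given for them: ACVR2A, BMP7, BMPR1A, BMPR1B, BMPR2, ID3, SKIL, SMAD2, SMAD4, SMAD5, SMAD7, SMURF1, TGFBI and TGFBR1. Depth limits BMP4, INHBB and TGFB3, with at most 55 reads in a sample.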
